A study of Mus musculus with 9 samples.

Results

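The 9 genes described here belong to the NF-kB pathway and to the cytokine signals that feed into it or follow from it, out of 49554 genes placed on the autosomes and the X chromosome. They were taken from a list: the kinase, inhibitor and transcription factor genes Ikbkb, Nfkbia, Rela and Nfkb1 (4 NF-kB genes), and the ligand genes Il6, Il1b and Tnf with the receptor genes Il6ra and Tlr4 (5 cytokine and receptor genes). DNA methylation at CpGs was measured by whole-genome bisulfite sequencing of frozen nucleus accumbens punches from male C57BL/6J mice aged 8 weeks. The labels put 5 libraries in the Control group (replicates 2, 3, 4, 5 and 8) and 4 in the Susceptible group (replicates 2, 3, 6 and 7). The stress described is 10 days of social defeat, 1 bout a day, by a CD1 retired breeder. All libraries carry one treatment text, and neither the handling of Control mice nor the scoring of susceptibility is given in the sources used here. The labels name no genetic change, batch or pooling of mice, and if libraries shared a mouse or a preparation the p-values would measure technical spread.

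In resting cells NF-kB dimers, such as the one formed by p65 (Rela) and p50 (made from the Nfkb1 product), are held in the cytoplasm by the inhibitor IkB-alpha (Nfkbia). Signals from receptors such as Tlr4, which recognises bacterial lipopolysaccharide, or from TNF and interleukin-1 beta activate the IkB kinase, whose beta subunit is Ikbkb, and the inhibitor is then degraded. The freed dimers bind kappaB sites, among them sites at Il6, Il1b, Tnf and at Nfkbia itself, which closes a feedback loop. In the brain, microglia are a main source of these cytokines. Methylated CpGs near a gene start are generally associated with low transcription, while CpG-rich starts are mostly unmethylated.

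The 250 bases before the start are shown for the 6 members whose start is in the RefSeq promoter table (GRCm38.p6), because these stretches differ widely in CpG content. Each is written 5′ to 3′ on the gene's strand with its CpGs in capitals. They lie at chr12:55492648-55492897 (Nfkbia, minus strand), chr19:5637291-5637540 (Rela, plus strand), chr5:30012864-30013113 (Il6, plus strand), chr2:129371140-129371389 (Il1b, minus strand), chr17:35202008-35202257 (Tnf, minus strand) and chr3:89913197-89913446 (Il6ra, minus strand). At Rela and Il1b the table's start (chr19:5637541 and chr2:129371139) lies inside the annotated gene bounds. The stretches of Rela and Il1b therefore lie partly inside the gene.
Nfkbia: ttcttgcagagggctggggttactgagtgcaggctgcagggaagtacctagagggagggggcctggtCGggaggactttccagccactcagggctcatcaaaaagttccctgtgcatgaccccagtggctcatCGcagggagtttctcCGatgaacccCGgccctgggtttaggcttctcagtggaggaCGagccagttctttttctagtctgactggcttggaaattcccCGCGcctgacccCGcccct
Rela: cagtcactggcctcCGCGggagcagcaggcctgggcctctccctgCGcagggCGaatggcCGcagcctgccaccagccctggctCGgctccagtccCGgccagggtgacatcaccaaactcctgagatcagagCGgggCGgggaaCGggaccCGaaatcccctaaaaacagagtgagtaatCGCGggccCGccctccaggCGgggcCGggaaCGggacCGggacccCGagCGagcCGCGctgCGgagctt
Il6: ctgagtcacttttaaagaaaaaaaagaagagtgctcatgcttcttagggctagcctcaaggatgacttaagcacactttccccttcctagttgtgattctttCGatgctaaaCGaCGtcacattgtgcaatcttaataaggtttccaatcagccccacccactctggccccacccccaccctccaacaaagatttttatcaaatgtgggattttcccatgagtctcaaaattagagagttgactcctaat
Il1b: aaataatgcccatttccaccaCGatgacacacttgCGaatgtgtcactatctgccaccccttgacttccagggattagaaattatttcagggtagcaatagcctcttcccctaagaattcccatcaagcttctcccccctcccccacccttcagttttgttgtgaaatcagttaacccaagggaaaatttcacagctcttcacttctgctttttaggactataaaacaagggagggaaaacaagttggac
Tnf: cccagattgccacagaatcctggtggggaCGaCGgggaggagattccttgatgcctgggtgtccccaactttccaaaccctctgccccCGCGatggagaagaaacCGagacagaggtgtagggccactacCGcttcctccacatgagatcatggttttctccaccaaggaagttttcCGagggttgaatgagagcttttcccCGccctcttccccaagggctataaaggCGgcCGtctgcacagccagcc
Il6ra: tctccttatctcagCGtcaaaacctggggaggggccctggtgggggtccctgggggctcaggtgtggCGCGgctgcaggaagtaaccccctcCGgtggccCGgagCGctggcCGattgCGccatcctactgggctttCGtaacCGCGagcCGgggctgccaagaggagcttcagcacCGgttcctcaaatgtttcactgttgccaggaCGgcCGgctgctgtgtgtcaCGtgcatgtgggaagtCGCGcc

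These stretches hold 8 CpGs at Nfkbia, 23 at Rela and 18 at Il6ra, against 10 at Tnf, 3 at Il6 and 2 at Il1b. The median over all 32851 windows of the same length in the table is 6. A match to the kappaB consensus, searched on both strands, occurs at Il6 from base -44 to -35 counted from the start (gggattttcc on the strand shown) and at Nfkbia from base -29 to -20 (gggaatttcc on the opposite strand). Of all windows, 7.25% hold such a match. The TATA box letters TATAAA, also searched on both strands, occur at Il1b from base -31 to -26 and at Tnf from base -29 to -24, and in 12.4% of all windows. None of these 4 matches contains a CpG. A match is a stretch of letters and does not show that a factor binds there.

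Each library listed between 313475624 and 570984634 calls, at 20.2 to 26.7 calls per listed cytosine. Listed calls were higher in each of the Susceptible libraries than in any Control library. Control 5 and Control 8 stand apart from the rest. At CpGs of middle level the calls of both strands disagreed 18 and 19.2 times as much as binomial counting allows in these libraries, against 2.32 to 5.95 times in the other 7, so results are also given without them. A methylation level is the share of calls read as C, summed over a region, and hydroxymethylated cytosine is read as C too. The tissue is a mixture of cells, so a change in the mix of cell types and a change of methylation within a type cannot be told apart. Of the neuron genes examined to check the tissue label, 9 of 10, among them the striatal genes Drd1 (9.84%), Drd2 (16%), Penk (5.58%) and Ppp1r1b (5.45%), had starts under 20%. Low starts were common, at 62.4% of 19386 protein-coding genes, and 4 of 8 oligodendrocyte genes, Olig1 (3.87%), Olig2 (3.05%), Cnp (6.79%) and Mbp (14.1%), also read under 20%, as did 1 of 8 astrocyte and 1 of 6 endothelium genes. A low start is thus not particular to the neuron genes. The starts of 8 of 10 microglia genes read over 50%, for example 83.98% at P2ry12. For some genes of these lists, among them Penk, Ppp1r1b, Olig1 and Mbp, the gene end with more listed CpGs stood in for the start and may be the wrong end.

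The starts of the 4 NF-kB genes were almost free of methylation, and those of 3 of the 5 cytokine and receptor genes were mostly methylated. Over the 1 kb on each side of the start, the level averaged over the 9 libraries was 3.92% at Nfkbia, 4.06% at Rela, 4.18% at Ikbkb and 6.52% at Nfkb1. It was 10.5% at Il6ra, 22.9% at Il6, 76.4% at Tnf, 79.0% at Tlr4 and 93.2% at Il1b. In this order only the steps from Il6 to Tnf (53.5 percentage points) and from Tlr4 to Il1b (14.2 points) separated neighbours whose ranges over libraries did not overlap, and both steps went the same way in 9 of 9 libraries. The 4 NF-kB genes overlapped each other in range, as did Nfkb1 with Il6ra, Il6ra with Il6, and Tnf with Tlr4. Of 19386 protein-coding genes, 31.0 to 43.2% read lower at their start than an NF-kB member, 53.2% lower than Il6ra, 64.0% lower than Il6, 77.0% lower than Tnf, 78.7% lower than Tlr4 and 97.3% lower than Il1b.

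The difference between the classes was similar in every library. The unweighted mean over the cytokine and receptor genes was 56.4%, and that over the NF-kB genes 4.67%, a difference of 51.7 ± 2.65 points (SD over 9 libraries) that ranged from 47.0 to 55.2. It was 51.0 ± 1.44 points in the Control libraries (SD, n = 5) and 52.6 ± 3.75 in the Susceptible libraries (SD, n = 4), and 52.0 points over all libraries without Control 5 and Control 8. This is a description of 9 listed genes, which are not replicates. Summing the calls of a class, so that CpG-rich windows weigh more, gave 27.7 points.

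**Figure D1:**
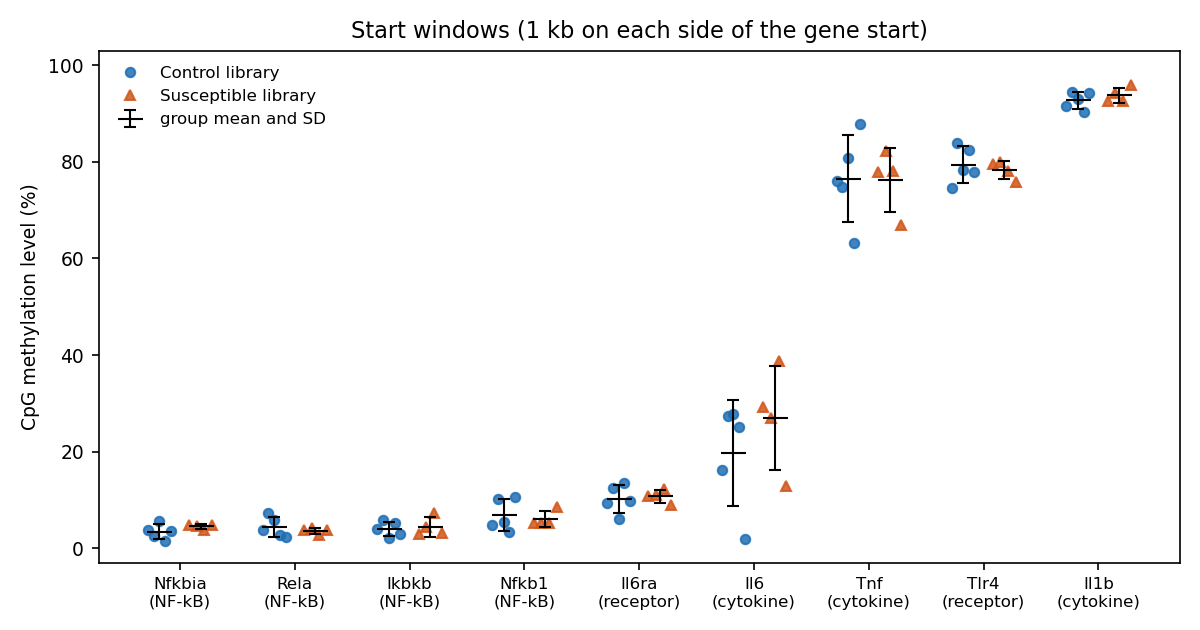
CpG methylation level (%) in the window of 1 kb on each side of the start, for each gene in order of its mean, with Control libraries as circles, Susceptible libraries as triangles, and the group mean with its SD. The NF-kB genes sit near the bottom (means of 3.92 to 6.52%), Il6 spreads from 1.85 to 38.7%, and the groups overlap at every gene.

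Among the NF-kB genes, Ikbkb encodes the catalytic beta subunit of the IkB kinase (chr8:22659205-22706589). In the order Control 2, 3, 4, 5 and 8, used below as well, its start window read 3.89, 5.81, 2.16, 5.23 and 2.91%, and in the order Susceptible 2, 3, 6 and 7 it read 3.0, 4.31, 7.27 and 3.06%. The highest library was Susceptible 6 and the lowest Control 4, with the other libraries mixed between them. The means were 4.0 ± 1.53% (SD, n = 5) and 4.41 ± 2.0% (SD, n = 4). Nfkb1, whose product is processed to p50, lies at chr3:135584655-135691969. Its start window read 4.89, 10.3, 5.41, 3.30 and 10.5% in the Control libraries, and 5.27, 5.19, 5.27 and 8.51% in the Susceptible libraries. Control 3, Control 8 and Susceptible 7 were high, and the other 6 libraries read 3.30 to 5.41%. The means were 6.89 ± 3.32% (SD, n = 5) and 6.06 ± 1.63% (SD, n = 4).

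Nfkbia, the gene of the inhibitor IkB-alpha (chr12:55489409-55492647, minus strand), read 3.85, 2.53, 5.72, 1.49 and 3.56% at its start in the Control libraries. In the Susceptible libraries it read 4.87, 4.66, 3.85 and 4.74%, within the Control range. The means were 3.43 ± 1.58% (SD, n = 5) and 4.53 ± 0.459% (SD, n = 4). Rela, the gene of p65 (chr19:5637442-5648134, plus strand), read 3.83, 7.34, 5.80, 2.79 and 2.34% in the Control libraries. The Susceptible libraries, at 3.84, 4.11, 2.65 and 3.87%, again lay inside the Control range. The means were 4.42 ± 2.11% (SD, n = 5) and 3.62 ± 0.654% (SD, n = 4).

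Among the ligands, Il6 encodes interleukin-6 (chr5:30013114-30019975, plus strand) and had the widest spread. Its start window read 16.25, 27.3, 27.8, 25.1 and 1.85% in the Control libraries, and 29.3, 27.0, 38.7 and 12.9% in the Susceptible libraries. Control 8 was the lowest and Susceptible 6 the highest, while 5 of the other libraries lay between 25.1 and 29.3%. The means were 19.7 ± 10.99% (SD, n = 5) and 27.0 ± 10.7% (SD, n = 4). The window is thinly covered, with 7 to 14 CpGs and 160 to 518 calls per library, and only 3 CpGs listed in all 9. The libraries list different CpGs there, so their values are not like for like. In the tile over the start, chr5:30013001-30014000, Control 5 read 0%, against 25.1% over the window. Control 2 and Control 8 read the same in both. The 500 bp before the start had at least 20 calls in only 2 Control and 2 Susceptible libraries. The part of this in the spread was not tested. The value of Control 8 rests on 4 of 216 calls (95% Wilson interval 0.722 to 4.66%), and that of Susceptible 6 on 120 of 310 (33.5 to 44.2%). Such intervals cover counting error only.

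Il1b, the gene of interleukin-1 beta (chr2:129364569-129371164, minus strand), was nearly fully methylated at its start in every library. It read 91.5, 94.5, 93.0, 90.3 and 94.3% in the Control libraries, and 92.7, 94.2, 92.5 and 95.8% in the Susceptible libraries. The means were 92.7 ± 1.80% (SD, n = 5) and 93.8 ± 1.55% (SD, n = 4), a spread far smaller than at Il6. Tnf, the gene of tumour necrosis factor (chr17:35199367-35202007, minus strand), read 76.05, 74.9, 80.7, 63.2 and 87.8% in the Control libraries, and 77.8, 82.3, 78.2 and 66.9% in the Susceptible libraries. The lowest and the highest value were those of Control 5 and Control 8, the libraries with the strongest strand disagreement. The means were 76.5 ± 9.05% (SD, n = 5) and 76.3 ± 6.62% (SD, n = 4).

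The receptor genes differed from each other. Il6ra, which encodes the alpha chain of the interleukin-6 receptor (chr3:89869324-89913196, minus strand), read 9.41, 12.5, 5.96, 13.4 and 9.74% in the Control libraries, and 10.8, 11.05, 12.4 and 9.03% in the Susceptible libraries. The means were 10.2 ± 2.93% (SD, n = 5) and 10.8 ± 1.37% (SD, n = 4). Tlr4 (chr4:66827551-66846581) read 74.5, 83.9, 78.3, 82.5 and 77.9% in the Control libraries, and 79.5, 80.04, 78.1 and 75.8% in the Susceptible libraries. The means were 79.4 ± 3.78% (SD, n = 5) and 78.4 ± 1.90% (SD, n = 4). At both receptor genes the Susceptible values lay inside the Control range.

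For Ikbkb, Nfkb1 and Tlr4 no start was taken from the promoter table, and the gene end with more listed CpGs stood in. At Ikbkb that end held 71 CpGs and the other end 20 CpGs at 93.9%. At Nfkb1 it held 138 CpGs and the other end 36 CpGs at 91.7%. At Tlr4 it held 26 CpGs, and the other end only 4. Among 17274 protein-coding genes with a start in the table, 79.2% have it at the CpG-richer end. Long noncoding RNA genes overlap 3 of the start windows, Gm36634 at Nfkbia, A230098N10Rik at Il6 and Il1bos at Il1b, and the calls there cannot be assigned to either gene.

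CpG number differed between the classes along with the level. The start windows of the NF-kB genes held 71 to 138 CpGs, those of Il6, Il1b, Tnf and Tlr4 held 15 to 38, and that of Il6ra held 102. Each member was set beside the protein-coding genes whose windows hold a number of CpGs within 20% of its own. Il1b exceeded their median of 85.7%, Tnf at 76.4% lay above a median of 66.3%, Tlr4 at 79.0% lay below a median of 82.8%, and Ikbkb at 4.18% lay below a median of 6.80%. The other NF-kB genes lay above their like, Nfkbia at 3.92% against a median of 2.60% (67.9% of its like read lower), Rela at 4.06% against 2.50% (71.3%) and Nfkb1 at 6.52% against 2.40% (87.1%). Il6 did not follow the pattern. The median of 1721 genes with a like CpG number was 84.99%, and only 3.02% of those genes read lower than Il6. The Il6 value depends on which CpGs each library lists, as described above. Il6ra at 10.5% read higher than 86.7% of its like, at a median of 3.81%.

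**Figure D2:**
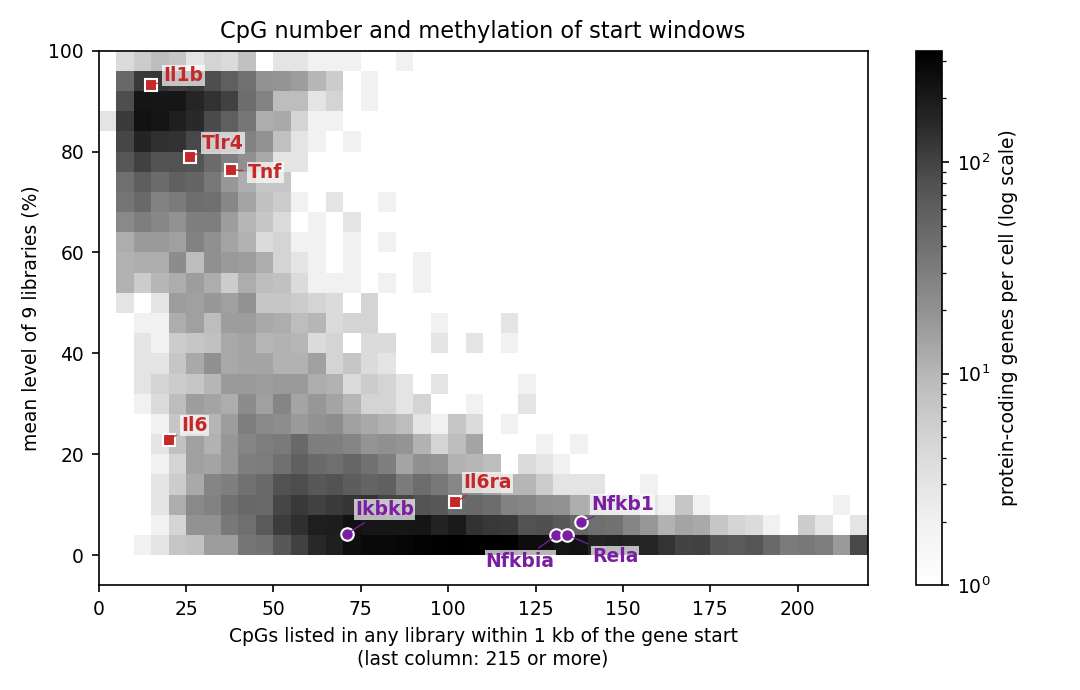
Mean methylation level of the 9 libraries (%) against the number of CpGs listed within 1 kb of the start, with the number of protein-coding genes per cell as grey shading on a log scale. NF-kB genes are purple circles and cytokine and receptor genes red squares. Il6, with 20 CpGs and 22.9%, lies below the dark area of CpG-poor, methylated starts that holds Il1b.

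Within the windows, the unmethylated stretch was wide at the NF-kB genes. In bins of 500 bp, Nfkbia read 0.498% in the Control and 0.952% in the Susceptible libraries just after the start, and 2.10 and 3.0% in the next bin. Rela read 0.450 and 1.19% just before the start, and rose to 87.97 and 89.9% from 1000 to 1500 bp after it. At Ikbkb the bins on either side of the start read 0.965 to 1.96%. At Nfkb1 the low stretch lay after the assumed start, at 1.25 to 3.65% in the 3 bins up to 1500 bp, while the bin before it read 29.8 and 33.0%. Il6ra had a stretch as low as theirs, at 1.75 and 2.19% before the start and 1.08 and 1.48% after it, flanked by steep sides. Its window mean of 10.5% thus combines a low centre with sides that read 74.7 and 82.4% from 1000 to 500 bp before the start. Of the CpGs printed above, each averaged over the libraries that list it, those of Nfkbia read 0 to 3.01%, those of Rela 0 to 6.36% and those of Il6ra 0 to 4.25%. All 9 libraries listed 0 of 8 of these CpGs at Nfkbia, 4 of 23 at Rela and 15 of 18 at Il6ra.

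The methylated starts had partial dips. At Tnf the 500 bp before the start read 58.7% in the Control and 64.3% in the Susceptible libraries, between neighbours of over 75%. In the 250 bases printed above, the 10 CpGs of Tnf averaged 32.5% at base -73 to 77.1% at base -48, and 7 of them were listed in all 9 libraries. At Il6 the 500 bp after the start read 12.4 and 23.2%. The 3 CpGs before it were listed in only 2 libraries each, with averages of 22.0, 45.8 and 22.7%. At Tlr4 the lowest bin lay inside the gene, from 1000 to 1500 bp after the start, at 48.9 and 48.5%. Il1b had no such dip near its start, where each group mean stayed over 80%, and its 2 CpGs printed above averaged 92.9 and 98.3%.

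**Figure D3:**
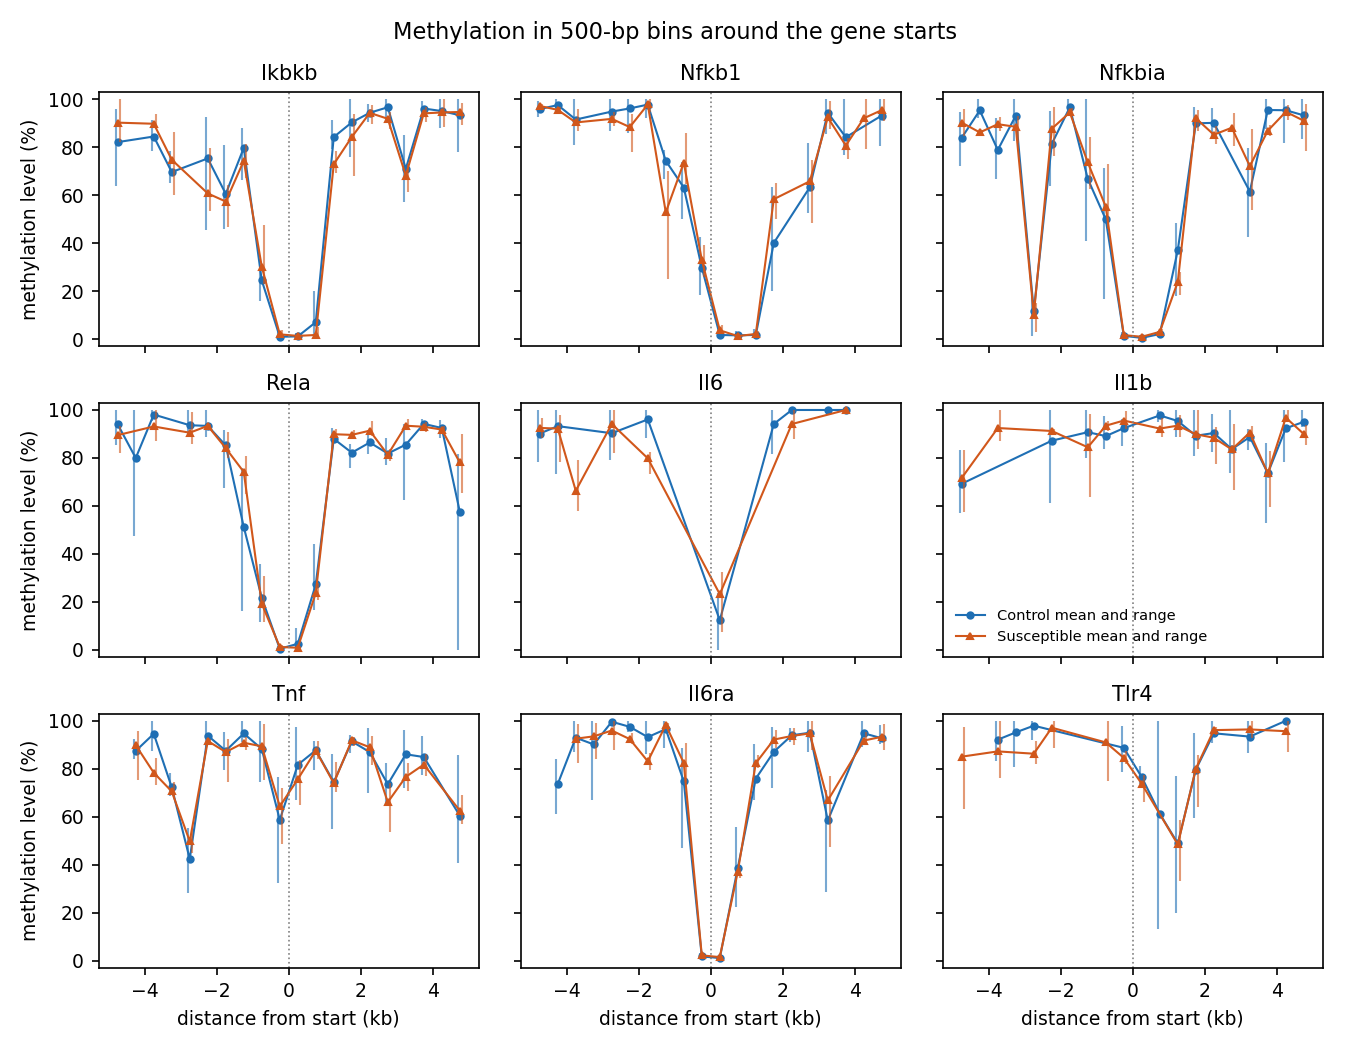
Methylation level (%) in bins of 500 bp by distance from the start (kb, negative upstream), as group means with the range over libraries, Control in blue and Susceptible in orange; bins need 3 libraries in each group. The NF-kB genes and Il6ra fall to near 0 at the start, Il1b stays high, and the group means follow each other.

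Against this range of levels, the Control and Susceptible libraries did not differ detectably at any start. With a quasi-binomial model moderated by limma's method and fitted to 42588 start windows, 0 of 9 members had an adjusted p under 0.05 (adjusted p 0.989 to 0.999), where 0.0% of all windows did. Unadjusted p-values under 0.05 were reached by 0 of 9 members, against 4.55% of all windows, and limma on logit levels called 0 windows in all. The groups overlapped at 9 of 9 members, while 1.71% of all windows had groups that did not overlap. The Susceptible minus Control differences were +0.410 points at Ikbkb, -0.826 at Nfkb1, +1.10 at Nfkbia, -0.804 at Rela, +1.10 at Il1b, -0.233 at Tnf, +0.597 at Il6ra and -1.05 at Tlr4. Their median over the 9 members was +0.410 points, and that over all windows -0.0759. With n of 5 and 4 and the spreads given above, differences of a few points at Tnf or Il6 were not detectable.

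Il6 had the largest difference of the 9, +7.31 points, outside the range of -5.50 to 4.91 that holds the middle 90% of all windows. Its unadjusted p in the quasi-binomial model was 0.203. The difference was 2.85 points without Control 8, 3.39 without Susceptible 6, 12 without Susceptible 7, and 3.18 without Control 5 and Control 8. With 2 kb on each side of the start it was -3.59 points. The sign at Nfkb1 also turned with the choice of CpGs: those listed in all 9 libraries gave +3.40 points (unadjusted p 0.0162, adjusted p 0.941 in the quasi-binomial model), and 500 bp on each side gave +2.28. At Rela, leaving out Control 5 and Control 8 gave -2.04 points at an unadjusted p of 0.0210 and an adjusted p of 0.944 in the same model, while leaving out Control 3 alone gave -0.0740 points.

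Gene bodies were mostly methylated in both classes, with Nfkbia as the exception. The mean of the 9 libraries was 25.5% over the short body of Nfkbia, 59.2% at Il6, 65.4% at Rela, 73.9% at Il6ra, 79.5% at Nfkb1, 83.9% at Tlr4, 84.1% at Tnf, 86.3% at Ikbkb and 89.7% at Il1b. Nfkbia was separated from the next gene in every library, and only 7.06% of 20101 protein-coding genes read lower. Its body shares the low stretch with its start window. The bins from 0 to 500 and from 500 to 1000 bp after the start each hold 51 of the body's 140 CpGs. From 1500 to 2500 bp after the start, the bins of Nfkbia read 85.2 to 92.1% as group means. The ranges of Il6ra and Nfkb1 also did not overlap, and the other neighbours overlapped. The cytokine and receptor genes exceeded the NF-kB genes by 14.0 ± 2.08 points over bodies (SD over 9 libraries). This difference of unweighted means includes Nfkbia at 25.5%. Rela, Nfkb1 and Ikbkb, at 65.4 to 86.3%, lay within the 59.2 to 89.7% of the cytokine and receptor genes. When the calls of a class were summed the difference was -1.42 points, since the long bodies of Nfkb1, Ikbkb and Il6ra then carry most calls.

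**Figure D4:**
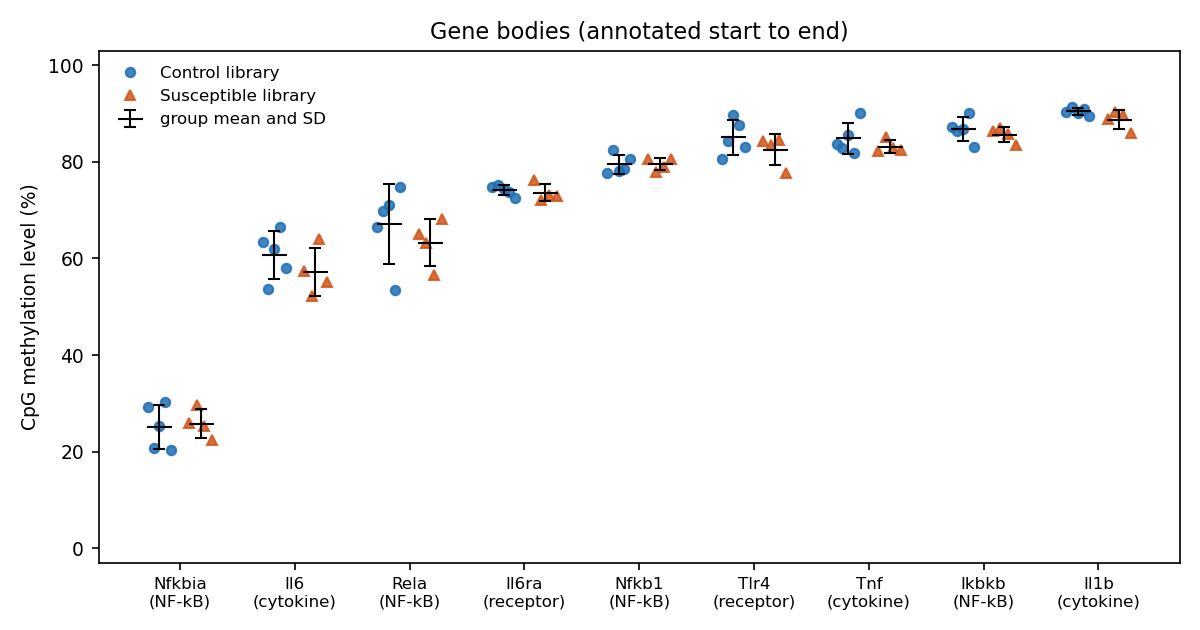
CpG methylation level (%) over the annotated gene body, for each gene in order of its mean, with Control libraries as circles, Susceptible libraries as triangles, and the group mean with its SD. Nfkbia lies alone between 20.3 and 30.3%, Il6 and Rela spread between 52.2 and 74.8%, and the groups overlap at every gene.

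Over gene bodies, too, the groups overlapped at 9 of 9 members, where 1.56% of 39099 bodies did not. By the quasi-binomial model 0 of 9 passed an adjusted p of 0.05 (adjusted p 0.997 to 1), where 0.0% of all bodies did, 0 of 9 had an unadjusted p under 0.05 against 4.59% of all bodies, and limma called 0. The difference was negative at 7 of 9 members, with a median of -1.69 points, and at 22644 of all 39099 bodies, with a median of -0.336. Without Susceptible 7 the median over the members was -0.791 points and the difference at Tlr4 moved from -2.60 to -0.992 points. Rela had the most negative value (67.2 ± 8.23% in 5 Control and 63.3 ± 4.86% in 4 Susceptible libraries), and its Control libraries ran from 53.4% in Control 5 to 74.8% in Control 8. Without both of these libraries its difference moved from -3.89 to -5.93 points, at an unadjusted p of 0.0519. Il6 read 60.8 ± 4.94% and 57.2 ± 5.04%, and Tlr4 85.1 ± 3.64% and 82.5 ± 3.24% (SD, n = 5 and 4). Body differences were negative at 10 of 10 microglia genes (median -1.25 points), 8 of 8 astrocyte genes (-1.81), 4 of 8 oligodendrocyte genes (-0.187), 3 of 6 endothelium genes (-0.0773) and 3 of 10 neuron genes (+1.19). Without Susceptible 7 they were negative at 6 of 10 microglia genes (median -0.347) and 4 of 8 astrocyte genes (-0.0336), and without Control 5 at 7 of 10 microglia genes (-0.352). Over the microglia list the median level was 83.6 to 85.7% in the Control and 81.5 to 86.1% in the Susceptible libraries, and over the astrocyte list 74.5 to 76.5% and 67.0 to 77.0%. The part of these cells in the members' values was not tested.

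**Figure D5:**
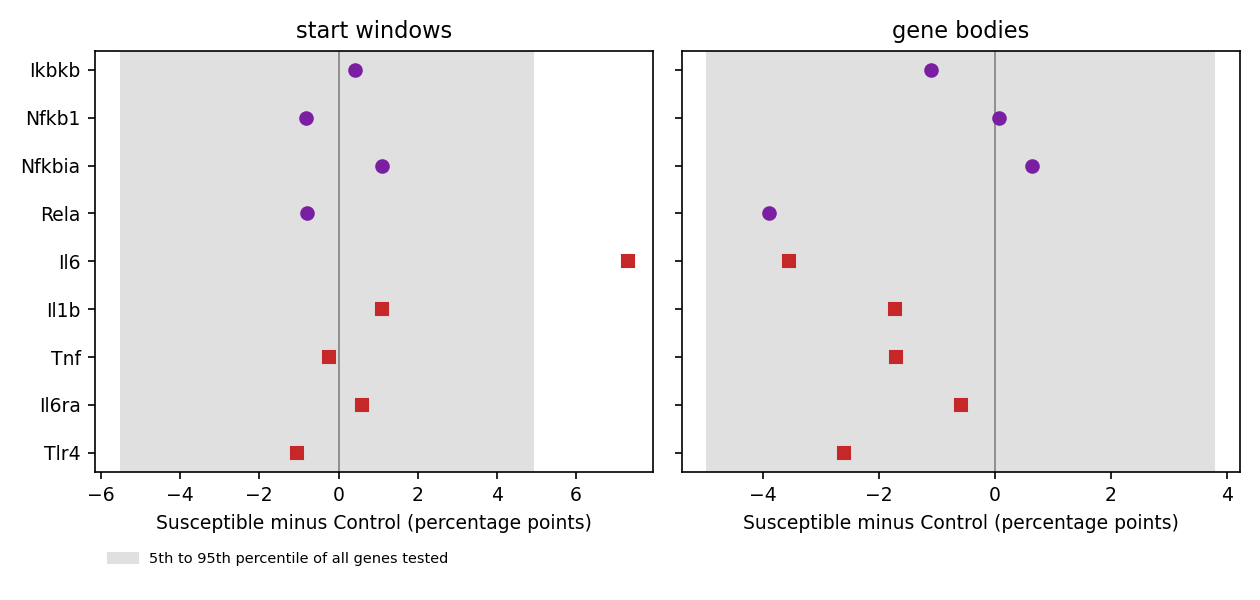
Susceptible minus Control methylation level (percentage points) for start windows (left) and gene bodies (right), NF-kB genes as purple circles and cytokine and receptor genes as red squares, with the 5th to 95th percentile of all genes tested in grey. Of the 18 points, 1 lies outside the grey range, the start of Il6 at +7.31 points.

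Tiles of 1 kb were read across each body and 5 kb on either side. Of 344 such tiles, 267 had the 3 CpGs and 20 calls per library needed for the test, but only 2 of 17 at Il6, 4 of 29 at Tlr4 and 9 of 18 at Il1b. The quasi-binomial model called 0 of 267, and 0.0% of 1041809 tiles genome-wide, where the smallest adjusted p was 0.103. Before adjustment, p was under 0.05 at 12 of 267 tiles, 4.49% against 4.38% of all tiles, and limma called 0 tiles genome-wide. Without overlap between the groups, 2 tiles were higher (0.598% of all tiles were) and 3 lower (0.96%) in the Susceptible libraries, together 1.87% against 1.56%. The shares at the members were near those of the whole genome.

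The tiles of smallest p lay in the bodies or the flanks, away from the CpG-rich starts, except at Il6. At Nfkb1, the tile chr3:135630001-135631000, 61.5 kb into the gene, averaged 52.1 ± 16.7% in the Control and 65.1 ± 3.58% in the Susceptible libraries (SD, n = 5 and 4). Its Control libraries read 50.5, 49.2, 69.3, 64.7 and 26.7% and its Susceptible libraries 60.3, 66.0, 65.0 and 68.9%, so that Control 8 lay far below and Control 4 above the Susceptible values. The unadjusted p was 0.00356 and the adjusted p 0.997 in the quasi-binomial model, and the difference was 13.0 points, or 6.63 without Control 8. The tile chr3:135581001-135582000, past the far end of Nfkb1, read 60.6, 70.7, 63.2, 56.5 and 69.6% against 74.6, 74.7, 73.3 and 71.1%. Here every Susceptible library was above every Control library (unadjusted p 0.0136).

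At Rela, chr19:5639001-5640000 in the body read 84.9 ± 3.49% in 5 Control and 90.4 ± 1.75% in 4 Susceptible libraries without overlap. The tile chr19:5652001-5653000 beyond Rela, inside the neighbouring gene Sipa1, read 85.8 ± 3.47% and 80.8 ± 1.58% without overlap, but at CpGs listed in all 9 libraries its difference of -4.99 points became +0.0771. At Il6ra, chr3:89893001-89894000 (94.7 ± 3.24% and 88.7 ± 1.55%) and chr3:89915001-89916000 (97.7 ± 2.19% and 92.2 ± 2.03%) were lower in all Susceptible libraries. Also at Il6ra, chr3:89890001-89891000 differed by -11.4 points with overlap, and by +2.08 points at CpGs listed in all 9 libraries. At Ikbkb and Nfkbia the tiles of smallest p, chr8:22680001-22681000 and chr12:55488001-55489000, differed by -5.37 and -6.89 points. A further tile each of Ikbkb, Nfkb1 and Rela differed, with overlap, by -3.20 to -7.63 points and at unadjusted p-values of 0.0311 to 0.0431. Among the tiles tested, the one of lowest level held the start at Ikbkb (1.10%), Nfkb1 (1.91%), Nfkbia (0.987%), Rela (1.34%), Il6ra (5.60%), Il6 (17.2%) and Tlr4 (80.9%), where only 4 tiles were tested and the next tile into the gene, with as few as 2 CpGs in a library, read 48.4%.

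At Il6 the tile over the start, chr5:30013001-30014000, read 16.25, 23.6, 20.1, 0 and 1.85% in the Control libraries and 29.1, 23.8, 32.6 and 7.31% in the Susceptible libraries. Control 5 and Control 8 were lowest and Susceptible 7 next. The difference of 10.8 points had an unadjusted p of 0.0414 and an adjusted p of 0.997 in the quasi-binomial model. Without Control 5 and Control 8 it was 3.22 points at an unadjusted p of 0.385. No tile of Il1b, Tnf or Tlr4 reached an unadjusted p under 0.05.

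Single CpGs of the start windows gave the same kind of result. Of 251 listed in all 9 libraries, 201 averaged under 20% and 26 over 80%. The quasi-binomial model called 0 of 251, and 0.0% of 5818940 CpGs genome-wide, and limma called 0 as well. Before adjustment, p was under 0.05 at 25 of 251, 9.96% against 9.51% of all CpGs. That genome-wide share is well above the threshold of 0.05, and limma put 319084 CpGs under it where the quasi-binomial model put 553258. Unadjusted p-values of single CpGs from the quasi-binomial model may therefore be too small, which was not tested. Without overlap between the groups, 2 CpGs were higher (0.314% of all CpGs were) and 3 lower (1.41%) in the Susceptible libraries, where 1.72% of all CpGs did so in either direction.

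The CpGs of smallest p at Ikbkb and Nfkb1 lay just before the start and read 0 in every Control library. At Ikbkb, base -95 (chr8:22706683) had 0 of 133 Control calls methylated. By counting error alone this allows a share of up to 2.26%. The same CpG read 6.35, 7.69, 14.3 and 6.98% in the Susceptible libraries, 16 of 193 calls. At Nfkb1, base -45 (chr3:135692013) had 0 of 117 Control calls methylated, which by counting error alone allows up to 2.56%. This CpG read 3.13, 22.7, 12.5 and 2.78% in the Susceptible libraries. Both limits pool the calls of the Control libraries and treat them as independent. At CpGs of middle level the strands disagreed by more than binomial counting allows in every library, so the true limits may be higher. Base -11 of Nfkb1 read 0 in the Control libraries and in Susceptible 2, and 14.6, 21.4 and 17.5% in the other Susceptible libraries. Their unadjusted p-values were 0.00310, 0.00608 and 0.000625, and the adjusted p in the quasi-binomial model was 0.438 for each.

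At the methylated starts, single CpGs with an unadjusted p under 0.05 lay in both directions. At Tnf, the CpG at base 491 after the start (chr17:35201515) read 100, 95.3, 93.5, 100 and 95.1% in the Control libraries and 79.6, 81.1, 80.4 and 42.4% in the Susceptible libraries. Its unadjusted p was 0.00458 and its adjusted p 0.438 in the quasi-binomial model, and Susceptible 7 was far below the other 3. At Il1b, base -387 read 100% in every Control library and 93.0 to 98.1% in the Susceptible libraries, and base 741 read 100% and 85.7 to 97.4%. Another CpG of Il1b, base -353, went the other way by 18.3 points, the largest of these 3 differences. It read 100, 93.75, 72.4, 61.5 and 60.0% in the Control and 94.4, 88.9, 100 and 100% in the Susceptible libraries, with overlap, at 10 to 36 calls per library (unadjusted p 0.0456, adjusted p 0.518 in the quasi-binomial model). It lies outside the rule for named CpGs and was added after its values were seen. At Il6, base 126 read 21.4, 18.75, 0, 0 and 0% against 32.0, 37.5, 70.3 and 6.67%, with 12 to 50 calls per library. Of the CpGs named by the same rule, those at Nfkbia (bases 309 and 695), Il6ra (bases -100 and 70) and base -83 of Ikbkb read 0 to 1.39% in the Control libraries and up to 22.7% in a Susceptible library. At Rela, base 269 read 0 except in Control 3 (18.9%) and Control 8 (14.3%). At Tlr4, base 385 averaged 74.3 ± 12.8% in the Control and 85.3 ± 5.33% in the Susceptible libraries (SD, n = 5 and 4), with overlap.

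Values of exactly 0 or 100% were themselves unevenly spread over the libraries. Of the 251 CpGs, 62.2 to 76.9% read exactly 0 in the Control libraries and 51.0 to 63.3% in the Susceptible libraries, and 2.39 to 8.76% against 0.398 to 1.59% read exactly 100%. Over all 5818940 CpGs, 8.67 to 14.0% read exactly 0 in the Control and 7.13 to 8.71% in the Susceptible libraries, and 25.3 to 58.2% read exactly 100% in the Control and 16.6 to 26.6% in the Susceptible libraries, with Control 5 and Control 8 highest in both shares. The part of this in the single-CpG values was not tested.

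Other genes of the pathway, from a list of 26, mostly had low starts. Their median level was 5.69%, and 24 of 26 read under 20%, against the 62.4% of protein-coding genes given above. Examples are Chuk, the alpha subunit of the kinase (6.58%), Rel (2.03%) and Tnfaip3, a deubiquitinase that restrains the pathway (1.12%). The exceptions were Tnip1 (83.8%) and Bcl3 (26.5%). By the quasi-binomial model 0 of 26 passed an adjusted p of 0.05. Before adjustment, p was under 0.05 at 1 gene, Traf3, an adaptor of receptor signalling, at 6.72% in the Control and 8.64% in the Susceptible libraries (unadjusted p 0.0473, adjusted p 0.989). The median difference over the list was -0.516 points.

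A list of 26 further cytokines and receptors covered the whole scale, with a median of 38.3%, 8 genes under 20% and 10 over 50%. Ligands with a start in the promoter table stood at both ends. Il17a (93.0%), Ifng (89.9%) and Il1a (83.5%) read high, and Cxcl12 (3.31%), Csf1 (19.6%) and Il18 (23.6%) low. Receptors with a start in that table also stood at both ends. Il6st, the shared signalling chain of the interleukin-6 receptor (1.49%), and Tlr2 (11.3%) read low, and Il1r1 (79.0%) and Tlr9 (87.5%) high. In this list and the pathway list, the CpG-richer gene end stood in for the start of some genes and may be the wrong end. Ccl2 (93.7%) and Il10 (84.1%) are among them. By the quasi-binomial model 0 of 26 passed an adjusted p of 0.05 and 0 of 26 had an unadjusted p under 0.05, and the median difference was -0.835 points. Over the 10 microglia genes the median start level was 79.1 to 85.8% in the Control and 82.3 to 84.6% in the Susceptible libraries. The part of microglia in the members' values was not tested.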

How the data were processed

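Whole-genome bisulfite libraries of 5 Control and 4 Susceptible samples were deposited as 1 file each. Per the file headers, these give for each cytosine of a CpG the count of calls (coverage) and the percent of calls that were C or T, as deposited by the authors. Count times percent gave whole methylated calls, and no cytosine is listed with fewer than 10 calls, so the totals (313475624 to 570984634) are not the full depth. Bismark, Bowtie, Picard and mm10 are named in the submitters' processing notes, without versions or roles. Groups came from the labels' phenotype.

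Strands of a CpG were added, and calls were summed over start windows (1 kb on each side), gene bodies, tiles of 1000 bp and single CpGs. Gene bounds and starts came from RefSeq tables of GRCm38.p6. All 395787 listed CpGs inside promoter-table windows lie on a CG of its sequence. Of 49554 genes, 26794 took their start from that table, and for 22760 the CpG-richer end stood in. Features needed 3 CpGs and 20 calls in every library. A quasi-binomial logistic model, with the dispersion (at least 1) shrunk as in limma's squeezeVar, gave F tests with Benjamini-Hochberg adjustment over all features (Python 3.11.15, numpy 2.4.6, scipy 1.17.1). It was tested on simulated data, with changes planted only in start windows of middle level. No member's start averaged at such a level, so recovery of changes at the members' levels was not tested. Any 2 libraries had identical calls at 0.689 to 1.41% of shared CpGs of chromosome 19, so none was a copy.

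All 9 members are named. Tiles are named where groups do not overlap or the unadjusted p is under 0.05 (at most 3 a member), and the lowest tile. CpGs are named at an unadjusted p under 0.05 (at most 2 a member), and list genes likewise (at most 5 a list). The members and lists were chosen with earlier results of these data known. Alternatives changed the minimum of calls, the CpGs used, the window, the moderation, the test and the libraries. Leaving out Control 5 and Control 8 was added after seeing their strand disagreement. Lists of marker and pathway genes served as description only. The result of 1 list gene is not reported here.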

Additional observations from a re-analysis of the deposited data

Results flagged for a closer look

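At 2 of 40 groups of member values checked, 1 library lay far from the others of its group. The rate taken for chance was 1 in 20 groups. Both times the library was Susceptible 7, which also had the lowest autosomal level (74.5%). The groups share libraries and are not independent, so the count cannot be judged against that rate. At the start of Nfkb1, Susceptible 7 read 8.51%, while the other Susceptible libraries read 5.19 to 5.27%, and Control 3 and Control 8 were higher than Susceptible 7. Over the body of Tlr4, Susceptible 7 read 77.7%, and the others 83.5 to 84.5%.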

How the results depend on the processing

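No alternative brought a member's start, body or named tile to an adjusted p under 0.05, but signs of differences turned. Larger differences were among them, at the start of Il6 (7.31 points in the main setting) and at a tile of Il6ra (-11.4). The cause was not tested unless stated. Differences are Susceptible minus Control in points. With cytosines of at least 20 calls, starts gave -0.358 at Ikbkb, -0.00820 at Il6ra and 1.25 at Tlr4. With CpGs listed in all 9 libraries they gave 3.40 at Nfkb1 and 1.32 at Tlr4, bodies gave -0.374 at Nfkb1, 3.12 at Il6 and 1.27 at Tlr4, and tiles gave 0.0771 (Rela) and 2.08 (Il6ra). With 500 bp on each side, starts gave 2.28 at Nfkb1 and 0.313 at Tnf, and with 2 kb -5.32 at Ikbkb, 0.701 at Rela and -3.59 at Il6. Bodies without their first 1 kb gave -2.37 at Nfkbia and 0.477 at Rela. Leaving out 1 library gave ranges at starts of -0.542 to 0.880 (Ikbkb), -1.72 to 0.0874 (Nfkb1), -1.32 to -0.0740 (Rela), -3.57 to 2.91 (Tnf), -0.464 to 1.41 (Il6ra) and -2.28 to 0.0676 (Tlr4), and at bodies of -0.356 to 0.842 (Nfkb1) and -0.611 to 1.91 (Nfkbia).

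The replicate block used only the libraries whose number occurs in both groups, Control 2, Control 3, Susceptible 2 and Susceptible 3. The pairs of numbers 2 and 3 deviated together with correlations of 0.0185 and -0.0250 over gene starts. Pairs with unlike numbers ran from -0.0747 to 0.123. The labels do not say what the number means, and these correlations cannot show whether such samples share anything else. With the replicate block 0 starts, bodies and tiles passed, and starts gave -1.19 at Ikbkb, 4.62 at Tnf, -0.0263 at Il6ra and 0.600 at Tlr4, and bodies -0.881 at Nfkb1, 0.332 at Tnf and 1.40 at Tlr4.

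The difference between the gene classes at starts was 27.7 points with calls summed, 70.2 by medians, 59.5 for ligands alone and 43.8 with 2 kb. For bodies it was -1.42 with calls summed, 9.77 by medians, 5.89 with CpGs listed in all 9 libraries and 11.8 with at least 20 calls. Genome-wide, 0 to 1 tiles passed when 1 library was left out, the 1 without Control 4. Tiles at an unadjusted p under 0.05 numbered 45605, 20420 with at least 20 calls (433494 tested) and 29685 without Susceptible 6, and single CpGs 553258, 319084 by limma and 111274 with at least 20 calls (1210493 tested). Depth limits Il6 most, with 160 calls at its start in Control 2.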

Other observations

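Away from the starts, methylation also fell locally near several members. Upstream of Nfkbia, 3 to 2.5 kb before the start and inside the long noncoding RNA gene Gm36634, a 500-bp bin read 11.6% in the Control and 10.2% in the Susceptible libraries, between neighbours of over 80%. At the far end of Rela, the tile chr19:5648001-5649000 read 28.5 ± 14.3% in 5 Control and 23.4 ± 5.43% in 4 Susceptible libraries. Beyond Tnf, the tile chr17:35195001-35196000, which lies in Ltb, the gene of lymphotoxin beta, read 13.3 ± 2.73% and 13.8 ± 0.944%, and the next tile, also in Ltb, 23.5 ± 2.61% and 18.8 ± 3.55%. Beyond Il1b, the tile chr2:129360001-129361000, 10.6 kb from the start, was the lowest of its surroundings at 49.7 ± 3.34% and 54.2 ± 12.4%, with Susceptible 6 at 71.7% and the other 8 libraries at 43.96 to 54.3%. The tile past the far end of Il6ra, chr3:89868001-89869000, read 49.5 ± 10.7% and 43.6 ± 10.1%. At each of these tiles the groups overlapped, and the unadjusted p in the quasi-binomial model was 0.0866 or higher.

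Over the 10162 start windows that averaged under 10%, the class to which the 4 NF-kB genes belong, the median level was 2.83 to 3.04% in the Control and 3.02 to 3.20% in the Susceptible libraries.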
